A study of Mus musculus with 122 samples.

Results

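Gadd45a, Gadd45b and Gadd45g make up the mouse Gadd45 family, and the transcripts of all 3 genes, of 52459 genes in the expression table, are described here across 4 embryonic stem cell lines, together with the FLAG and RAD21 peaks at their promoters. The genes were chosen because their levels in these libraries were already known to differ, so their RNA values and their peaks are given as a description, without tests. All 3 genes were found in the table, and all 3 passed the filter on low values in each line. In the GENCODE vM21 annotation of GRCm38, each has 4 exons in its first transcript: Gadd45a (ENSMUSG00000036390.8) lies at chr6:67035096-67037457 on the minus strand, Gadd45b (ENSMUSG00000015312.9) at chr10:80930073-80932204 on the plus strand and Gadd45g (ENSMUSG00000021453.2) at chr13:51846678-51848468 on the plus strand.

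The lines are mouse embryonic stem cells (E14Tg2a) in which both Ctcf alleles carry an auxin-inducible degron with eGFP, the plant receptor Tir1 is expressed from Rosa26, and a doxycycline-inducible, FLAG-tagged transgene sits at Tigre on both alleles. The lines are single clones, kept in medium with serum, LIF, CHIR99021 and PD0325901. The transgene codes for CTCF, for its germline paralog CTCFL, or for a chimera: LCL has the zinc fingers of CTCF between the termini of CTCFL, and CLC has the zinc fingers of CTCFL between the termini of CTCF. U cells were untreated, I cells received the auxin IAA at 500 µM, which removes the degron-tagged CTCF, D cells received doxycycline at 1 µg/ml, which switches on the transgene, and ID cells received both. RNA was sequenced from 38 libraries: the CTCF line had 2 U, 3 I, 3 D and 3 ID, the CTCFL line 3 U, 3 I, 3 D and 2 ID, and LCL and CLC 2 of each. ChIP-seq peak lists cover FLAG and RAD21 (a cohesin subunit) in D and ID cells of the same transgenes, and FLAG alone in CLL and LLC, which are CTCFL with the N terminus or the C terminus of CTCF, and in CTCF and CTCFL ID cells with RNase or mock treatment. The sample labels give 24 h of treatment for the RNA-seq, for RAD21 and for FLAG of the 4 lines, and 48 h for the other FLAG samples, whereas the treatment protocol gives 2 days, and 4 days for Hi-C.

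The GADD45 proteins are small, acidic, mainly nuclear proteins with no enzyme activity of their own, which act by binding partners. They bind and activate the kinase MAP3K4 upstream of p38 and JNK, bind CDK1 with cyclin B, p21 and PCNA, and have been linked to active DNA demethylation with TET and TDG. Gadd45a is a classical p53 target induced by DNA damage, Gadd45b responds to NF-kB and TGF-beta, and Gadd45g to cytokines and differentiation signals, and all of them are known as early stress genes.

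Whole reads could be recovered for 36 libraries, which held between 6847072 and 49716771 reads. Ctcfl transcripts checked the induction of the transgene: they stood at 208 ± 16.5 (SD, n = 3) normalised counts in U of the CTCFL line, against 8244 ± 1005 (SD, n = 3) after doxycycline, and were above U in D and ID of LCL and CLC too. In the CTCF line, Ctcf transcripts were at 4701 ± 15.1 (SD, n = 2) untreated and 3748 ± 172 (SD, n = 3) after doxycycline, so that the table shows no increase there. The 8 markers of pluripotent cells were detected in every group, with the lowest group mean for Sox2, at 4027, and the highest for Dppa5a, at 62637. Each transgene is in 1 clonal line, so that clone and transgene cannot be told apart in any comparison between lines, and conditions are compared within a line. Normalised counts are the authors' values, in which read counts were divided by 1 size factor per library. In bulk RNA, fewer cells expressing a gene and less RNA per cell cannot be told apart.

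The promoters of the 3 genes hold several short elements, of which the CCAAT box alone was found in all 3. These promoters are shown because the peaks described below lie around them. Their RefSeq starts differ by some bases from the GENCODE starts, from which all distances are counted. They are taken from RefSeq (GRCm38.p6), read 5′ to 3′ along the gene, and run from 250 bases before the start to 50 after it. Capitals mark, on either strand, the CCAAT box, the TATA box, the E box and the octamer, whose letters are given with their counts below.
Gadd45a, chr6:67037358-67037657, minus strand: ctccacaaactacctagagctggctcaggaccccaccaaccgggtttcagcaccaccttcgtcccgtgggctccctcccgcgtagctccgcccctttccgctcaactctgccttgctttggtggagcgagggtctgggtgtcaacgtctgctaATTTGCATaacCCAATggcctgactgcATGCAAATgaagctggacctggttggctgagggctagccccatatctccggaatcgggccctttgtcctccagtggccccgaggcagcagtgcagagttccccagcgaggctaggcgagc
Gadd45b, chr10:80929841-80930140, plus strand: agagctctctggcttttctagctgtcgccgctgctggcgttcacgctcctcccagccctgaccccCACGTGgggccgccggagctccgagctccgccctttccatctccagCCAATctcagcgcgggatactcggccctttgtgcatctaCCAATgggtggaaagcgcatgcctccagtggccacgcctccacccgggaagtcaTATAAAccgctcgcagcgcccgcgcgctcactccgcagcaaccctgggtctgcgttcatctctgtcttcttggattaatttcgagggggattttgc
Gadd45g, chr13:51846425-51846724, plus strand: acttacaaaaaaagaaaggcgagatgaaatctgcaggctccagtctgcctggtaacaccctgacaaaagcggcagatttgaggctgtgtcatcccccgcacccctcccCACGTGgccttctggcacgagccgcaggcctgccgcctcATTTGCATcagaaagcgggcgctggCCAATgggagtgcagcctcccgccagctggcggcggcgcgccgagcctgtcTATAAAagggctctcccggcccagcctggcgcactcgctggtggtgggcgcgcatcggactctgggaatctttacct

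CCAAT was found in all 3 promoters and in 37.4% of the 32851 mouse promoters of the same length. The TATA box, searched as TATAAA, was found in Gadd45b and Gadd45g but not in Gadd45a, against 13.6% of all promoters. The E box, searched as CACGTG, was likewise found in Gadd45b and Gadd45g, against 7.15% of all promoters. The octamer ATTTGCAT, the letters bound by POU factors such as OCT4, occurred 2 times in Gadd45a and 1 time in Gadd45g, against 1.74% of all promoters with at least 1. In Gadd45g it overlapped a match to TGATGNAAN, the letters of the amino acid response element, found in 3.95% of all promoters. The GC content was 61.0% in Gadd45a, 62.0% in Gadd45b and 62.3% in Gadd45g, against a median of 52.7%. These matches are letters in a window, and no binding of the factors was measured.

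Gadd45g varied most, over a 95.7-fold range of group means. In the CTCFL line it was at 538.61, 640.34 and 535.31 normalised counts (U), at 428, 416.18 and 486.91 (I), at 2057.09, 1815.39 and 1760.36 (D), and at 335.23 and 301.54 (ID). The 3 D libraries stood far above all others of the series, and the ID libraries, which express the same transgene without CTCF, stood below every U library. The log2 difference from U was 1.72 ± 0.11 (SE) in D, -0.84 ± 0.12 in ID and -0.36 ± 0.11 in I, on the log2(value + 1) scale used throughout. The D libraries were of uneven depth, but the lowest of the 3 still held 470 reads of the gene.

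In LCL, ID was the highest condition for Gadd45g. Gadd45g was at 72.98 and 65.45 normalised counts (U), 64.64 and 42.06 (I), 57.39 and 40.22 (D), and 339.07 and 347.44 (ID). The ID libraries were above all others of the line, with a log2 difference of 2.3 ± 0.28 (SE) from U and 2.69 ± 0.28 from I, whereas D and I were each below U, by -0.52 ± 0.28 and -0.40 ± 0.28. Ctcfl counts, which here report the transgene, were 400 ± 22.8 (SD, n = 2) in D and 1172 ± 74.2 (SD, n = 2) in ID of LCL. The part of the transgene level in the difference between D and ID was not tested.

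In CLC, every treatment was above the untreated cells. Gadd45g was at 26.17 and 13.05 normalised counts (U), 84.97 and 97.45 (I), 80.41 and 108.44 (D), and 76.73 and 66.54 (ID), so that no treated library overlapped U. The log2 difference from U was 2.24 ± 0.34 (SE) in I, 2.27 ± 0.34 in D and 1.89 ± 0.34 in ID. These differences rest on a U level of 31 and 11 reads, the lowest of the series, and depend on which U library is kept: without U replicate 1 they were 2.71, 2.75 and 2.37, and without U replicate 2 they were 1.76, 1.80 and 1.42.

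In the CTCF line the Gadd45g levels of the conditions were closer together. It was at 326.48 and 310.44 normalised counts (U), 283.63, 405.55 and 391.45 (I), 505.22, 458.93 and 492.05 (D), and 329.13, 336.72 and 343.53 (ID). The D libraries were above the rest, by 0.61 ± 0.14 (SE) on the log2 scale from U, and ID was within 0.08 ± 0.14 of U. The CTCF line and the CTCFL line thus both had their highest Gadd45g levels in D, and in both lines the ID libraries were lower than all D libraries.

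**Figure D1:**
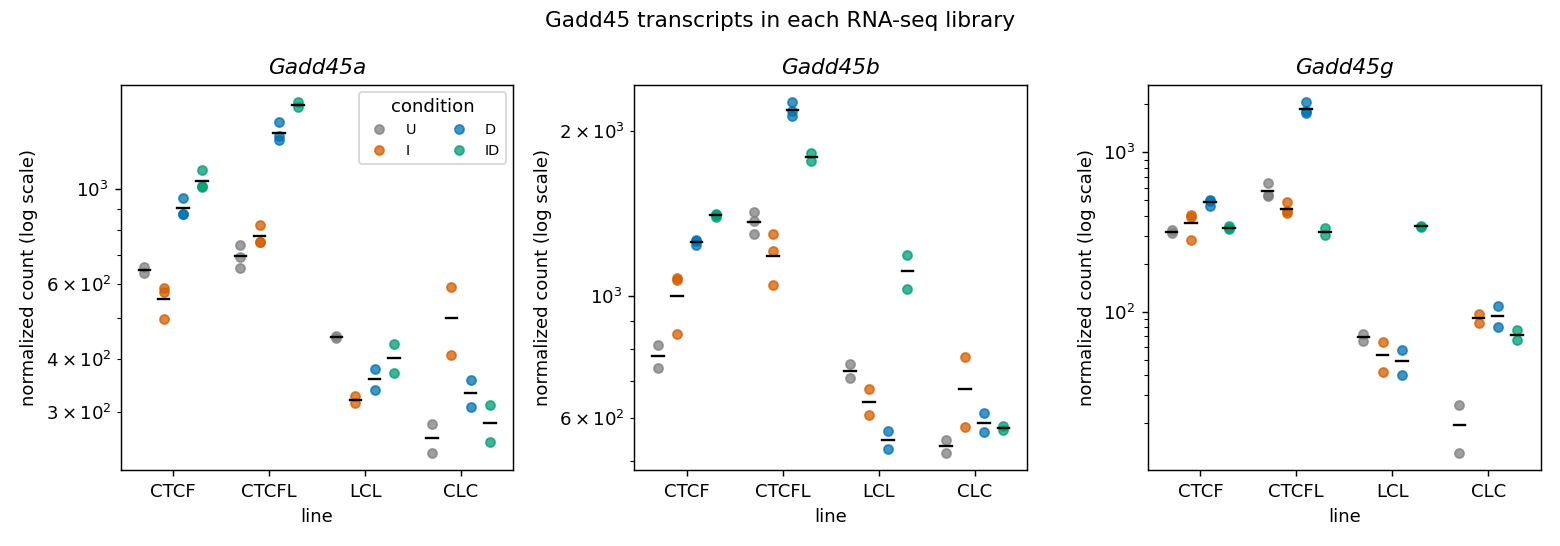
Normalised counts (log scale) of Gadd45a, Gadd45b and Gadd45g in each of the 38 RNA-seq libraries, by line and condition, with a bar at the group mean. Gadd45g in CTCFL D (1760.36 to 2057.09) and in LCL ID (339.07 and 347.44) stands apart from the other groups of the same line.

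Gadd45a, the family member best known as a p53 target, was highest in the doxycycline-treated cells of the CTCFL and CTCF lines, with or without IAA. In the CTCFL line it was at 740.6, 692.71 and 652.59 normalised counts (U), 750.63, 823.38 and 753 (I), 1431.58, 1332.59 and 1299.67 (D), and 1594.27 and 1558.96 (ID). The U and I libraries lay next to each other and the D and ID libraries above them, 1.95-fold and 2.27-fold above U, with log2 differences from U of 0.96 ± 0.09 (SE) in D and 1.18 ± 0.10 in ID, against 0.16 ± 0.09 in I. In the CTCF line it was at 634.88 and 656.22 (U), 496.59, 585.04 and 574.19 (I), 874.66, 875.36 and 951.51 (D), and 1011.52, 1016.02 and 1107.78 (ID). Here the I libraries were below U, by -0.23 ± 0.09, and the D and ID libraries above it, by 0.48 ± 0.09 and 0.69 ± 0.09.

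The chimeras gave another order for Gadd45a. In LCL it was at 452.68 and 448.86 normalised counts (U), 315.65 and 327.59 (I), 337.65 and 380.03 (D), and 432.67 and 371.45 (ID). Every treated library was below U, by -0.49 ± 0.14 (SE) in I, -0.33 ± 0.14 in D and -0.17 ± 0.14 in ID. In CLC it was at 241.43 and 282.35 (U), 407.87 and 590.03 (I), 309.05 and 356.98 (D), and 311.45 and 256.12 (ID), and I was the highest group, by 0.91 ± 0.20 from U. The I libraries of CLC were far apart: the difference was 0.64 without I replicate 2 and 1.17 without I replicate 1. The ID libraries of CLC overlapped U, and the sign of their difference, 0.11 ± 0.20, turned to -0.03 when ID replicate 1 was left out.

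Gadd45b was the most even of the 3, over a 4.11-fold range of group means. In the CTCFL line it was at 1423.29, 1301.43 and 1370.2 normalised counts (U), 1050.89, 1209.62 and 1296.93 (I), 2136.02, 2179.41 and 2258.5 (D), and 1764.61 and 1823.31 (ID). D was the highest and ID lay between D and U, at log2 differences of 0.68 ± 0.08 (SE) and 0.39 ± 0.09 from U, and I was below U, at -0.21 ± 0.08. In the CTCF line it was at 814.6 and 740.19 (U), 851.85, 1071.25 and 1078.8 (I), 1243.05, 1259.93 and 1266.51 (D), and 1406.96, 1416.1 and 1393.81 (ID). Each group of the CTCF line was above the one before, at 0.36 ± 0.10 in I, 0.69 ± 0.10 in D and 0.86 ± 0.10 in ID from U.

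In LCL, Gadd45b followed Gadd45g rather than Gadd45a. It was at 709.24 and 752.64 normalised counts (U), 676.15 and 608.26 (I), 567.96 and 527.04 (D), and 1187.93 and 1032.44 (ID). The ID libraries were above all others of the line, by 0.60 ± 0.12 (SE) from U, and D was the lowest, at -0.42 ± 0.12. In CLC it was at 518.32 and 546.9 (U), 577.81 and 775.2 (I), 611.33 and 565.16 (D), and 569.49 and 580.6 (ID). All treated CLC libraries were above U, by 0.33 ± 0.14 in I, 0.14 ± 0.14 in D and 0.11 ± 0.14 in ID.

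**Figure D2:**
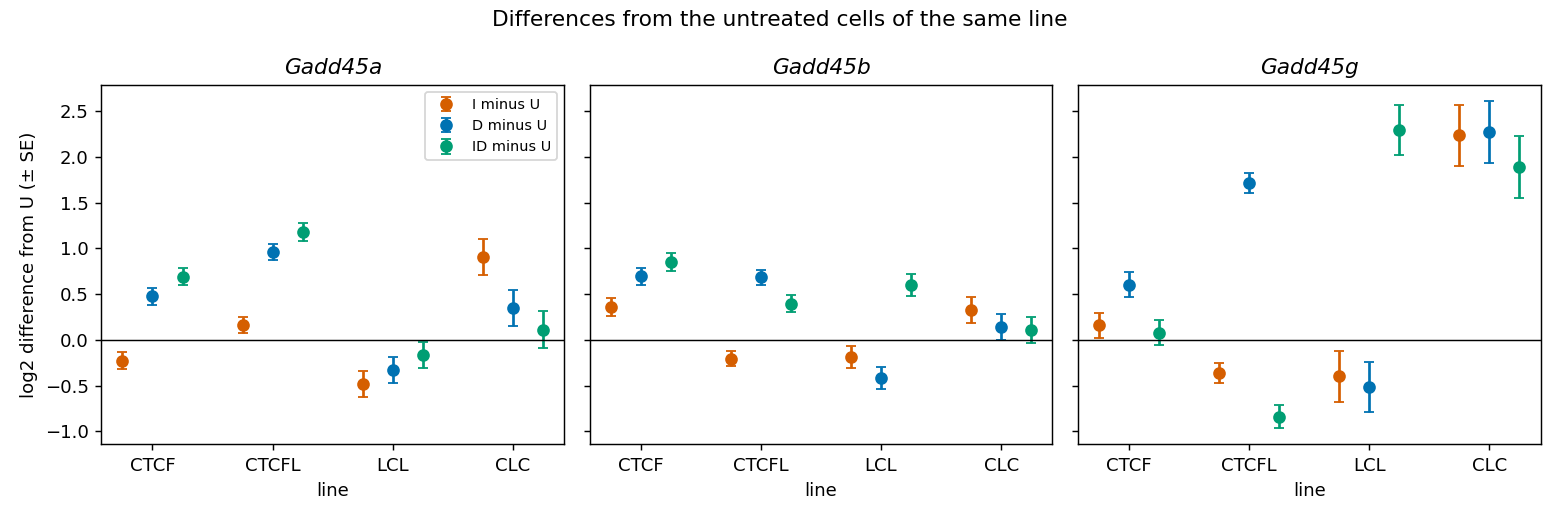
Log2 difference from the untreated cells of the same line for I, D and ID, on the log2(value + 1) scale, with the standard error of the fit across all genes of the line as bars. Gadd45g is at 1.72 in D but -0.84 in ID of the CTCFL line, and at -0.52 in D but 2.3 in ID of LCL.

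Counts of members whose groups did not overlap are given beside the share of all tested genes that did the same, and nothing is read from them, since the members were chosen on these values. All D libraries were above all U libraries for 3 of 3 members in the CTCFL line (23.4% of 16840 genes), in the CTCF line (21.9% of 16705) and in CLC (33.3% of 15337), and below them for 3 of 3 in LCL (30.1% of 15274). ID was above U for 3 of 3 members in the CTCF line (37.5%), for Gadd45a and Gadd45b in the CTCFL line (38.5%), for Gadd45b and Gadd45g in LCL (37.1%) and for the same genes in CLC (36.7%). ID was below U for Gadd45g in the CTCFL line (33.5%) and for Gadd45a in LCL (35.5%). I was above U for Gadd45b in the CTCF line (30.7%), for Gadd45a in the CTCFL line (27.5%) and for 3 of 3 members in CLC (37.4%). I was below U for Gadd45a in the CTCF line (28.9%), for Gadd45b and Gadd45g in the CTCFL line (24.2%) and for 3 of 3 members in LCL (33.7%).

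In the comparison of ID with I, the degron-tagged CTCF is removed in both groups, and the transgene, which is CTCF itself in the CTCF line, is induced in ID. In the CTCF line Gadd45a and Gadd45b were higher in ID than in I, by 0.92 ± 0.08 (SE) and 0.50 ± 0.09 without overlap (24.3% of genes), and Gadd45g overlapped, at -0.08 ± 0.12. In the CTCFL line the differences were 1.02 ± 0.10 for Gadd45a, 0.60 ± 0.09 for Gadd45b, both above I (29.5% of genes), and -0.48 ± 0.12 for Gadd45g, below I (31.8%). In LCL all 3 were higher in ID, by 0.32 ± 0.14, 0.79 ± 0.12 and 2.69 ± 0.28, without overlap (35.8% of genes). In CLC, Gadd45a and Gadd45g were below I (25.9% of genes), at -0.79 ± 0.20 and -0.34 ± 0.34, and Gadd45b overlapped, at -0.22 ± 0.14.

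Over all 16 groups, the order of Gadd45a ran from CTCFL ID (1577 ± 25 normalised counts, SD, n = 2) and CTCFL D through CTCF ID and CTCF D to CLC U (262 ± 28.9, n = 2), and the 5 highest groups did not overlap the groups next to them. Of its 15 neighbouring pairs, 7 overlapped. Gadd45b ran from CTCFL D (2191 ± 62.1, n = 3) and CTCFL ID to CLC U (533 ± 20.2, n = 2), and 10 of 15 neighbouring pairs overlapped. Gadd45g ran from CTCFL D (1878 ± 158, n = 3), followed at a distance by CTCFL U (571 ± 59.7, n = 3), to CLC U (19.6 ± 9.28, n = 2), with 7 of 15 pairs overlapping. Its 9 highest groups were all 8 groups of the CTCF and CTCFL lines and LCL ID. The LCL and CLC libraries are named in another pattern than those of the CTCF and CTCFL lines, and what it stands for is not given. Their normalised counts summed to at least 27805252 per library, against at most 25946866 in the CTCF and CTCFL lines. These orders cannot tell lines apart from such a split of the libraries.

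Per kilobase of annotated exon, Gadd45b was the most abundant of the 3 in every group but CTCFL D. In CTCF U the levels were 366 for Gadd45a, 489 for Gadd45b and 271 for Gadd45g, in normalised counts per kb. In CTCFL D they were 768, 1379 and 1601, with Gadd45g the highest. In CLC U they were 148, 335 and 16.7.

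FLAG peaks are read as those of the transgenic protein, since the cells' own CTCF carries no FLAG tag. No FLAG list comes from cells without doxycycline, so that peaks of other origin could not be told apart. A site is counted where overlapping peaks of both replicates form 1 region whose middle lies within 3 kb of a start of the gene. Of the 16 FLAG sets, 11 had a site at Gadd45b, 10 at Gadd45g and 4 at Gadd45a. The order of the genes turned with a window of 1 kb, which left 2, 1 and 4 sets, and with lists cut to equal length 0, 1 and 0 sets were left. Such a site was found at between 1.04% (CLL D) and 53.4% (LCL ID) of the 14138 measured genes, and the lists held between 2239 and 75509 peaks, so that the short lists limit which sites could be found. All FLAG sets of CTCF, CTCFL, LCL and CLC in D and ID had a site at Gadd45b and at Gadd45g. The background for these 8 sets was 40.1% and 31.4% for CTCF D and ID, 44.9% and 42% for CTCFL, 41.6% and 53.4% for LCL, and 9.99% and 27.9% for CLC. The other 8 sets had 19.9% in CLL ID, 1.65% and 5.45% in LLC D and ID, 12.1% and 23.1% in CTCF ID with RNase and mock, 7.1% and 8.18% in CTCFL ID with RNase and mock, and the 1.04% of CLL D.

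The sequences under the peaks are shown for 4 places at Gadd45g and Gadd45b that set the transgenes apart or recur in most lists. Each is a window of 50 bases on either side of the summit of the strongest peak, from RefSeq GRCm38.p6, read along the gene. A place is named by the median distance from the start, negative upstream, of all summits grouped there, so that the window's own summit can lie elsewhere within the group. Capitals mark the best match to the 14-base core of the CTCF motif on either strand where it had at most 3 mismatches.
Gadd45g at -6.81 kb, chr13:51839816-51839916: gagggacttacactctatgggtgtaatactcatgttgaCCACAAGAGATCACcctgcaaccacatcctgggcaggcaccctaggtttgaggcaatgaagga
Gadd45g at -0.98 kb, chr13:51845707-51845807: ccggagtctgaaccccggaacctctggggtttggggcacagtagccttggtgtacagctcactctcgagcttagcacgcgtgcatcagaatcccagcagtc
Gadd45b at -1.29 kb, chr10:80928681-80928781: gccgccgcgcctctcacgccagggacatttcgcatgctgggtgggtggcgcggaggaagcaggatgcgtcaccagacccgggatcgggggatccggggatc
Gadd45b at -0.87 kb, chr10:80929200-80929300: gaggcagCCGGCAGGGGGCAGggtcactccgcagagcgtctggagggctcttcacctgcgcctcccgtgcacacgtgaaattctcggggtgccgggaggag

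At Gadd45g, the peak at -6.81 kb was listed for CTCF and LCL, the transgenes with CTCF zinc fingers, and for none with CTCFL zinc fingers. There, in the intergenic stretch towards Sema4d, the summit had a -log10 q of 76.8 and 58.4 in the replicates of CTCF ID, 29.9 and 43.4 in CTCF D, 4.50 and 7.29 in LCL D, and at most 8.78 in LCL ID. A peak was also listed in both mock replicates and 1 RNase replicate of CTCF ID, and in no list of CTCFL, CLC, CLL or LLC. Of the 30335 CTCF ID sites of the genome, 19.4% shared this pattern of a site in LCL and no peak in any list of the others. The window holds a match with 3 mismatches, 5 bases from the summit on the strand of the gene. A match of this quality was found in 56% and 75% of the windows at all summits of the 2 CTCF ID lists, and in 9.93% and 10.1% of windows moved by 1000 bases.

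A further place, at -12.36 kb, had peaks in both replicates of CTCF ID, CTCFL D and ID, CLC ID, CLL ID and LCL D, the strongest at 19.7 in CLL ID. Nearer to the start, within the promoter window, Gadd45g had summits at -1.76, -1.52 and -0.98 kb, which merge into 1 site in most sets. At -1.76 kb the strongest were those of CTCF ID, at 41.8 and 39.6. At -0.98 kb they were those of CLC ID, at 25.9 and 32.4, and CTCFL D, at 27.8 and 16.4, and CTCF ID had no summit there in either replicate. Both sets of LCL had summits at -1.52 and -0.98 kb, and LCL ID also at -1.76 kb in both replicates. The window at -0.98 kb held no match with 3 or fewer mismatches. CLL ID had the peak at -0.98 kb in both replicates, and neither LLC set had a peak within 15 kb of the gene.

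At Gadd45b, all transgenes but LLC had summits in the same places. At -1.29 kb, the strongest was in CTCF ID, at a -log10 q of 56.4 in replicate 1, and 9 of 16 FLAG sets had a summit there in both replicates. At -0.87 kb, 10 sets had one in both replicates, the strongest in LCL ID, at 41.8. A further summit at -1.84 kb was listed in both replicates of CTCFL D and ID, LCL D and ID and CLC ID, and in 1 replicate of CTCF D and of CLC D. The window at -0.87 kb holds a match with 2 mismatches, and the one at -1.29 kb none with 3 or fewer. After RNase, CTCF ID kept a site at -0.87 kb, with -log10 q of 7.67 and 5.85. The CTCFL ID cells had Gadd45b peaks in only 1 replicate each of RNase and mock, whose lists were among the shortest.

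At Gadd45a, sites in the 3 kb window differed between the transgenes. CTCF D, LCL D and LCL ID had a summit at -1.69 kb in both replicates, the strongest at 17.0 in CTCF D, and no list of CTCFL, CLC, CLL or LLC had one. Inside the gene, around 0.86 kb after the start, CTCF D, CTCFL ID, LCL D and LCL ID had a summit in both replicates, of at most 13.5. The summits of CTCF D, CTCFL ID and LCL D there lay in the intron after exon 3, and those of LCL ID, at 705 and 707 bases, in exon 3. LCL ID alone had summits at the start site itself, at -0.08 kb, in both replicates. Neither CLC set had a peak in the promoter window.

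**Figure D3:**
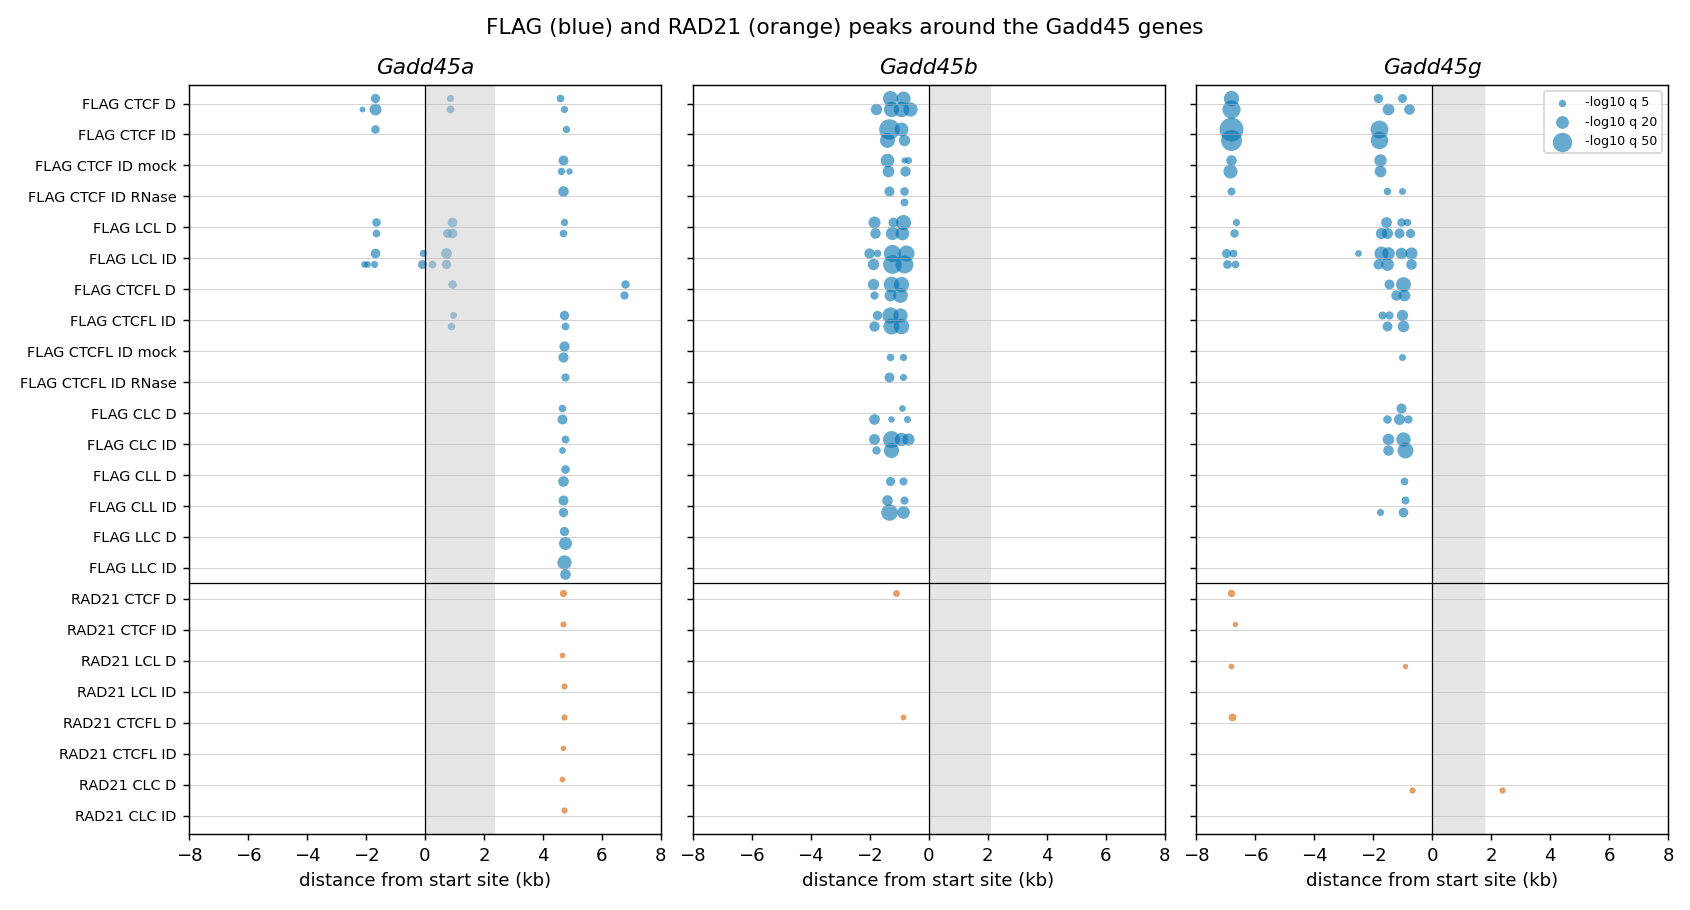
FLAG (blue) and RAD21 (orange) peaks by distance from the start site (kb, up to 8 kb on either side) in every list, 1 row per set with replicate 1 above replicate 2, the gene in grey and the dot area growing with -log10 q. At Gadd45g, the FLAG peaks at -6.81 kb appear only in CTCF and LCL rows, and those at -0.98 kb in both replicates of CTCFL, CLC and LCL in D and ID, of CLL ID and of CTCF D.

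No RAD21 set had a site, with a peak in both replicates, at any of the 3 promoters, against 3.08% and 0.41% of measured genes in CTCF D and ID, 0.198% and 0.113% in CTCFL, 1.52% and 0.12% in LCL and 0.255% and 0.127% in CLC. The RAD21 lists held between 168 and 22773 peaks, and in CTCFL D replicate 1 had 20475 and replicate 2 had 239, so that a site in both replicates was limited by the shorter list. Single replicates did list peaks. At Gadd45b, a RAD21 peak lay at -1090 bases in CTCF D replicate 1, with a mean -log10 q of 3.80, and at -871 bases in CTCFL D replicate 1, at 1.99. At Gadd45g, LCL D replicate 2 had one at -925 bases, of 1.28, and CLC D replicate 2 had one at -671 bases, of 2.76, and one at 2376 bases after the start, of 2.70.

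At the far site of Gadd45g, 4 RAD21 lists had a peak. A RAD21 peak lay between -6835 and -6696 bases in replicate 1 of CTCF D (4.93), CTCF ID (1.32) and CTCFL D (5.92) and in replicate 2 of LCL D (1.82), and in no list of CTCFL ID, LCL ID or CLC. The CTCFL D cells keep their own CTCF, which has no FLAG tag.

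In several domain lists from Hi-C this far site lies next to a domain boundary. The 24 lists come from 2 domain callers, crane and hicratio, with 1 list each for every condition used here. Their labels number the lists of a condition as replicates while their names give the caller, and they are read here by caller, which the sources used here do not settle. In them, 99.2% or more of their domains lie on a grid of 40 kb, which is the finest position they give. In the crane lists the Gadd45g start lay 6.7 kb inside a domain that begins at chr13:51840001 in CTCF U, I and D, and this domain was 280 kb long in U and D and 680 kb in I. In CTCFL ID and CLC ID the domain began at the same position and was 640 kb long. In CLC D and LCL D it began there too and was 320 kb long. In CTCF ID, LCL ID and CTCFL I it began at chr13:51800001, 46.7 kb from the Gadd45g start, and was 360, 680 and 720 kb long. In the hicratio lists the domain of Gadd45g was 440 kb long in CTCF U and D, 960 kb in CTCF I and 560 kb in CTCF ID. It was 920 to 960 kb long in the ID cells of the other lines and 920 kb in CTCFL I. In CTCFL U and D and in CLC D it was 440 kb long, and in LCL D 400 kb. Over all domains of a list the median length was 440 to 520 kb for crane and 560 to 640 kb for hicratio. The start lay in no crane domain in CTCFL U and D, 33.3 kb from the nearest boundary. Read so, these lengths have no replicate check. The starts of Gadd45a and Gadd45b lay in a domain in 23 and 24 of the 24 lists, and the nearest boundary in the crane lists was 2.6 to 277.4 kb from Gadd45a and 50.1 to 410.1 kb from Gadd45b.

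Genes that work with GADD45 proteins, or respond to the same signals, were counted in 7 lists, and for them the difference was tested with limma on all genes of the line (calls need an adjusted p below 0.01, after Benjamini and Hochberg, with a log2 difference over 1 in size). The share of all genes called was 0.455% in CTCF D, 5.9% in CTCFL D, 1.91% in LCL D and 0.6% in CLC D against U. It was 14.9% in CTCF ID, 19.6% in CTCFL ID, 12.5% in LCL ID and 6.47% in CLC ID, and 10.9%, 9.58%, 9.58% and 12.8% in I of the 4 lines in the same order.

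Of the 14 partner kinases and cell cycle proteins, none was called higher in any comparison with U. The kinase Map2k6, which activates p38, was called lower in CTCF ID (-1.74 ± 0.15 SE, limma adjusted p = 6.41e-07), in CTCFL ID (-3.01 ± 0.18, limma adjusted p = 7.69e-12), in CTCFL I (-1.22 ± 0.16, limma adjusted p = 3.09e-06) and in CLC I (-1.07 ± 0.12, limma adjusted p = 0.000191). Map3k4, the kinase that GADD45 proteins bind, was not called in any of the 12 comparisons with U, and was at -0.98 ± 0.10 in LCL ID (limma adjusted p = 6.45e-08), just inside the limit of 1. It was called, at -1.05 and -1.06, without LCL ID replicate 2 or LCL U replicate 2, and also with TMM factors (-1.01) and with DESeq2. Of the 12 DNA repair and demethylation genes, Tet1 and Tet2, the TET enzymes that oxidise methylcytosine, were both called lower in ID of the CTCF, CTCFL and LCL lines, and no gene of the list was called higher in any comparison with U. In CTCFL ID, Tet1 was at -1.81 ± 0.14 (limma adjusted p = 3.13e-10). With 1 treatment alone, Tet1 was called lower in CTCF I (-1.06 ± 0.12, limma adjusted p = 1.17e-05). Tet2 was called lower in CTCF D (-1.12 ± 0.15, limma adjusted p = 0.00125). The former call was lost without CTCF I replicate 3 or CTCF U replicate 2, the latter without CTCF U replicate 2. Tet1 was at -0.95 in CTCFL I and -1.23 in CLC I, where it was not called.

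Of the 20 p53 targets, 7 of 19 tested were called higher in LCL ID, with a median log2 difference of 0.84 against 0.02 for all genes, and 7 of 19 in CLC I, with a median of 0.67 against 0.00. Elsewhere 3 were called higher in CTCF ID (median 0.60) and in LCL I (0.52), and 2 in CTCFL ID (0.38). A single one was called higher in each of CTCF I (0.48), CTCFL D (0.45) and CLC ID (0.46). In CTCFL I (0.29), CTCF D (0.30), LCL D (0.06) and CLC D (0.08) none was called. None was called lower in any comparison with U. Bbc3, which codes for the apoptosis protein PUMA, was at 1.96 ± 0.17 in LCL ID (limma adjusted p = 9.59e-09), and Plk2, a polo-like kinase, at 1.43 ± 0.07 in CTCFL D (limma adjusted p = 1.35e-12). Plk2 was also at 1.87 in CLC I, 1.70 in LCL ID and 1.53 in CTCFL ID, and at -0.48 in LCL D. Cdkn1a, which codes for the p21 that GADD45 proteins bind, was not called: its highest differences were 0.73 ± 0.08 in CLC I and 0.66 ± 0.06 in CTCFL D. Mdm2, the ubiquitin ligase of p53, was likewise below the limit, at up to 0.92 ± 0.09, in LCL ID, and was called there only without LCL ID replicate 2, at 1.02.

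Of the 15 genes of the integrated stress and unfolded protein responses, 3 were called higher in CTCFL D, 4 in LCL ID, 3 in CLC ID and 1 in CLC D, and in CLC I, without doxycycline, 3 were called higher and 1 lower. In CTCFL ID 2 were higher and 1 lower, in CTCF ID 1 and 1, in CTCF I 2 were lower, and in LCL I 1 was lower. Ddit3, which codes for the stress factor CHOP, was called higher in CTCFL D (2.21 ± 0.09, limma adjusted p = 3.39e-13), CTCFL ID (1.93 ± 0.11, limma adjusted p = 1.56e-12), CTCF ID (1.42 ± 0.12, limma adjusted p = 6.11e-07), LCL ID (1.29 ± 0.27, limma adjusted p = 0.000562) and CLC ID (1.13 ± 0.25, limma adjusted p = 0.00978). The last call was lost without any single one of the U, D or ID libraries of CLC (0.87 to 1.4), with edgeR and with the replicate block, and the call in LCL ID without LCL ID replicate 1 or LCL U replicate 2 (1.13 and 1.12). Chac1, a glutathione-degrading enzyme of the same response, was called lower in CTCF I, at -2.34 ± 0.10 (limma adjusted p = 3.6e-09). It was also at -2.09 in LCL I, -1.72 in CLC I, -1.63 in CTCFL ID and -1.37 in CTCF ID. In CTCFL I and LCL ID it was at -0.67 and -0.65, and in CLC ID at 0.70. Its call in CLC I was lost without either U library. Ppp1r15a, known as GADD34 from the same screen that named the GADD45 genes, was not called in any comparison with U, and its differences ran from -0.80 ± 0.11 in CTCFL ID to 0.30 ± 0.11 in CLC D.

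Of the 16 TGF-beta and BMP targets, 1 was called higher in CTCFL D, Tgfb1 itself, at 1.81 ± 0.15 (limma adjusted p = 1.39e-08). It was also called in CTCFL ID, at 1.76 ± 0.17 (limma adjusted p = 1.76e-08). Bhlhe40, a repressor of the clock, was called lower in CTCF ID (-1.23 ± 0.06, limma adjusted p = 4.68e-09), CLC ID (-1.08 ± 0.13, limma adjusted p = 0.000611) and LCL I (-1.07 ± 0.12, limma adjusted p = 4.99e-07), and Klf10, an early TGF-beta gene, was called nowhere. Lefty2, a Nodal inhibitor, was called lower in CTCF D, LCL D and CLC D, at -1.34 ± 0.11, -2.69 ± 0.14 and -1.91 ± 0.15. With both treatments it was at -1.44 in LCL ID, -0.52 in CTCF ID, -0.61 in CTCFL ID and 0.50 in CLC ID. In CLC D the call was lost without either U or either D library (-2.01 to -1.81), and that of Bhlhe40 without CLC U replicate 1 (-1.05) and, in LCL I, without LCL I replicate 1 (-0.95).

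The NF-kB targets had calls in 4 comparisons with U, 1 of them, CTCFL I, with 1 gene higher, and differences between lines were not tested. In both CTCFL D and ID, 4 of 12 were called lower and none higher, with medians of -0.34 and -0.41 against -0.0028 and 0.08 for all genes, led by Relb at -1.59 ± 0.14 (limma adjusted p = 1.43e-08) in D and Bcl3 at -1.93 ± 0.14 (limma adjusted p = 1.07e-10) in ID. In LCL ID, 5 of 12 were called higher and 1 lower, with a median of 0.85 against 0.02, led by the chemokine Cxcl1 at 3.63 ± 0.87 (limma adjusted p = 0.00169). Cxcl1 lay near the filter on low values, which it passed in only 6 of the fits with an LCL library left out. With IAA alone in LCL it was at 2.21, where no gene of the list was called. Of the 16 immediate early genes, 1 was called higher and 4 lower in CTCFL D, where Fosb was at -3.16 ± 0.32 (limma adjusted p = 1.38e-07). In LCL ID and CLC ID, 3 were called higher and 3 lower, and Spry4, a feedback inhibitor of the ERK pathway, led the lower ones at -2.91 ± 0.44 and -4.71 ± 0.36. With IAA alone Spry4 was lower still, at -3.80 in LCL I and -5.93 in CLC I. In I, 1 was called higher and 4 lower in LCL, 3 and 4 in CLC, 2 and 2 in CTCF, and 0 and 1 in CTCFL.

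**Figure D4:**
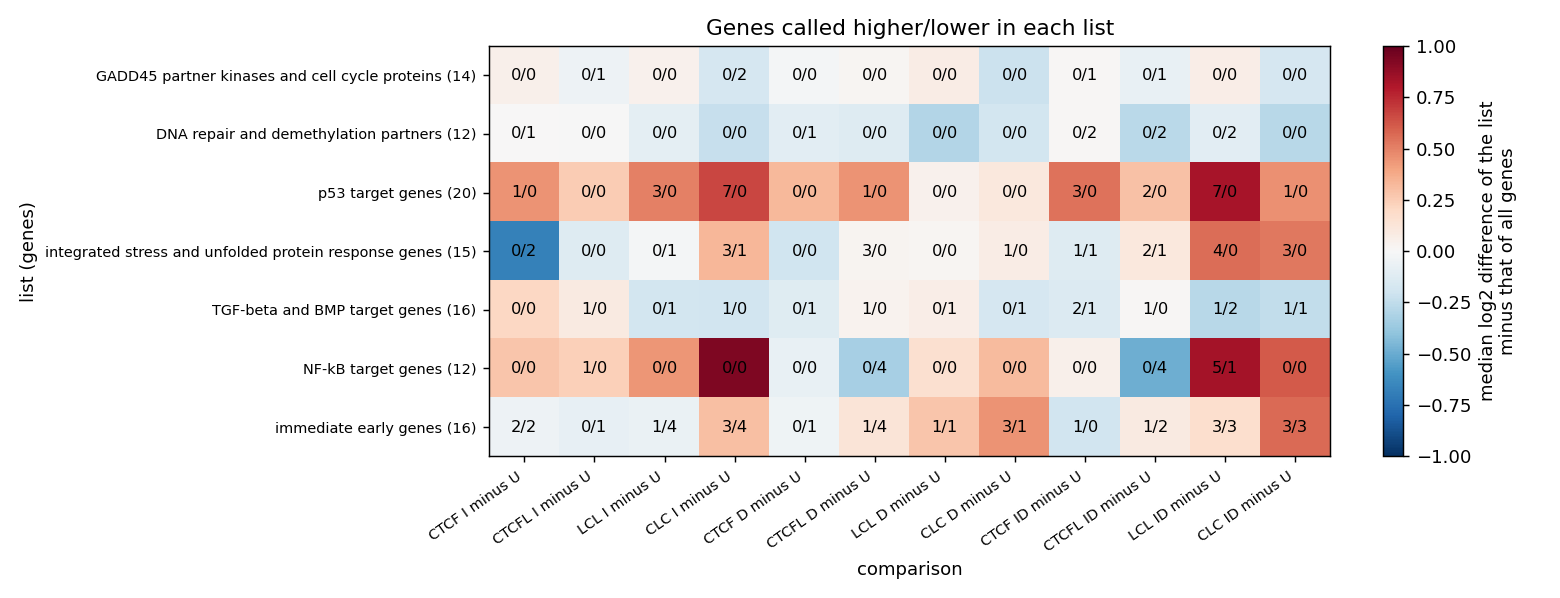
For each of 7 gene lists (rows) and each comparison with U (columns), the number of genes called higher and lower, with the colour giving the median log2 difference of the list minus that of all genes. The p53 targets have 7 higher and 0 lower in LCL ID and in CLC I, and the NF-kB targets 0 and 4 in CTCFL D.

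Markers of other cell types differed between these groups as well. The summed level of 5 trophoblast markers was 1151 to 1420.0 normalised counts (U), 2066 to 2255 (I), 1967 to 2184 (D) and 3189 to 3231 (ID) of the CTCFL line. Krt8 and Krt18 held most of it, at means of 1208 and 1917 in ID, where Elf5 was at 0. The 8 pluripotency markers summed to 153344 to 167775 in U, 116159 to 116446 in I, 123764 to 131299.8 in D and 86575 to 92535 in ID. Both sums thus differed from U with IAA alone as well. In LCL ID, where Gadd45g was high, the 6 markers of 2-cell-like cells summed to at most 1.18, against at most 1.23 in LCL U. The trophoblast markers summed there to 1261 to 1322, against 520 to 605 in LCL U. The 4 fibroblast markers summed to 5820 to 6390, against 3351 to 3483. The pluripotency markers were lower, at 204311 to 211917 against 228008 to 232684, and the mesoderm sums overlapped U. The part of these differences in the Gadd45 levels was not tested.

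By likeness over the 38 libraries, each line centred on its own mean, the genes closest to Gadd45a among 14396 were Cracr2b (Pearson r = 0.82), Akip1 (0.82) and Ddit3 (0.81). For Gadd45b they were Ddit3 (0.85), the co-chaperone Bag1 (0.83) and the peroxidase Prdx1 (0.81), and for Gadd45g the acyltransferase Agpat4 (0.87), Tomm40l (0.75) and the lipase Lipg (0.75). Among the members, r was 0.72 for Gadd45a with Gadd45b, 0.65 for Gadd45b with Gadd45g and 0.32 for Gadd45a with Gadd45g. The libraries share lines, treatments and untreated cells, so these values describe likeness and nothing more. Ddit3 itself had mean normalised counts of 609 (U), 808 (I), 2818 (D) and 2314 (ID) in the CTCFL line, while Agpat4 was at 1227, 1023, 1670 and 972, an order in which ID is the lowest as it is for Gadd45g.

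The measured neighbours of the members did not follow them as a group. Gng12, a G protein subunit whose end lies 13745 bases from Gadd45a, was called lower in CTCF ID (-1.22 ± 0.09, limma adjusted p = 1.96e-07) and CTCFL ID (-1.81 ± 0.11, limma adjusted p = 6.79e-12), where Gadd45a was higher than in U, and in CTCFL I (-1.14 ± 0.10, limma adjusted p = 5.12e-09). Lmnb2, the lamin gene 11827 bases before Gadd45b, was not called in any comparison with U and was at 0.64 ± 0.10 in CTCFL I and -0.40 ± 0.10 in LCL D. Gng7 on the other side of Gadd45b was not called either. Sema4d, the semaphorin gene 52930 bases from Gadd45g, was at -0.08 ± 0.13 in CTCFL D (limma adjusted p = 0.654) and at -0.08 ± 0.11 in LCL ID (limma adjusted p = 0.601), the groups in which Gadd45g was at its highest for the line. In CTCFL ID and CLC ID, Sema4d went in the direction of Gadd45g, at -0.75 and 0.61 against -0.84 and 1.89. The pseudogene Gm8566 beyond Gadd45a was not called, and Diras2, 655911 bases from Gadd45g, passed the filter only in the CTCF line.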

How the data were processed

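RNA-seq, ChIP-seq and Hi-C files were used as the authors deposited them. In the RNA table the deposited signal is the read count of a gene over a size factor of its library, which the authors made after alignment to GRCm38 with STAR v2.6. Whole reads were recovered in 36 of 38 libraries and entered edgeR 4.0.16 and DESeq2 1.42.0 as alternatives. Replicate 2 of CTCFL I and of CTCFL ID could not be read back. Peaks were called by the authors with MACS in each replicate after Bowtie2 and Picard, and the deposited lists give a fold enrichment (a ratio over local background) and a -log10 q. The control library is not given in the sources used here, and how deeply the ChIP libraries were sequenced is unknown.

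For RNA, log2(value + 1) entered limma 3.58.1 (R 4.3.3), in 1 fit per line over U, I, D and ID, for genes with a mean of at least 10. Calls needed an adjusted p below 0.01, after Benjamini and Hochberg, with a log2 difference over 1 in size. The scripts were tested on simulated data. The labels do not say that replicates are separate cultures, so p-values measure the spread between these libraries. The members and the gene lists were chosen with earlier results of these data known. Other genes named are the 3 most like each member, the nearest measured gene on either side, a few stress genes and the called gene with the largest difference in a list. Alternatives were a pseudocount of 5, no minimum mean or one of 50, TMM factors, the compared groups alone, all lines in 1 fit, the replicate block, each library left out, and, for peaks, a window of 1 kb, a -log10 q of at least 5, equal list sizes and either replicate alone. The sequence under 1 further peak, and the peaks there, are not reported here.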

Additional observations from a re-analysis of the deposited data

Results flagged for a closer look

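The direction of several differences from U was opposite in different lines, with no overlap between the libraries compared, and values are log2 differences. The difference between lines was not tested in any of these cases, and lines differ in clone as well as in transgene. The share of all tested genes with no overlap in the same direction ran from 21.9% to 38.5% over these comparisons. Some differences were smaller or little larger than their standard error (SE). Among them were Gadd45g at 0.079 ± 0.14 in CTCF ID, Gadd45a at -0.17 ± 0.14 in LCL ID and Gadd45b at 0.14 ± 0.14 in CLC D.

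With doxycycline alone, Gadd45a was above U by 0.48 in CTCF, 0.96 in CTCFL and 0.35 in CLC, and was at -0.33 in LCL, below U. Gadd45b was above U by 0.69 in CTCF, 0.68 in CTCFL and 0.14 in CLC, and was at -0.42 in LCL, below U. Gadd45g was above U by 0.61 in CTCF, 1.72 in CTCFL and 2.27 in CLC, and was at -0.52 in LCL, below U. With IAA alone, Gadd45a was above U by 0.16 in CTCFL and 0.91 in CLC, and was at -0.23 in CTCF and -0.49 in LCL, below U. Gadd45b was above U by 0.36 in CTCF and 0.33 in CLC, and was at -0.21 in CTCFL and -0.19 in LCL, below U. Gadd45g was above U by 2.24 in CLC, and was at -0.36 in CTCFL and -0.40 in LCL, below U. With both, Gadd45a was above U by 0.69 in CTCF and 1.18 in CTCFL, and was at -0.17 in LCL, below U. Gadd45g was above U by 0.079 in CTCF, 2.3 in LCL and 1.89 in CLC, and was at -0.84 in CTCFL, below U.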

How the results depend on the processing

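For the 36 log2 differences of the members from U, 324 of 324 values under alternatives other than leaving out 1 library stayed within 1 SD between replicates. In edgeR and DESeq2 the CTCFL I and CTCFL ID libraries that could not be read back were missing. Many of these values could not move, since the log2 difference is a difference of group means. The filter on low values, the compared groups alone and all lines in 1 fit leave it unchanged. So does the replicate block in LCL and CLC, where all groups hold the same replicates. These alternatives therefore say nothing on the stability of the differences. With a library left out, 326 of 342 values stayed within 1 SD, but libraries outside the compared groups could not move a value. The exceptions ranged, for Gadd45a, from 0.64 to 1.17 in CLC I and -0.28 to -0.059 in LCL ID, for Gadd45b from 0.12 to 0.54 in CLC I and 0.29 to 0.47 in CTCF I, and for Gadd45g from 1.76 to 2.71 in CLC I, 1.80 to 2.75 in CLC D, 1.42 to 2.37 in CLC ID, 0.066 to 0.32 in CTCF I and -0.70 to -0.10 in LCL I. Replicate numbers did not pair the samples: same-numbered libraries deviated together with r from -0.297 to 0.162 in the CTCF line, and no pair was above 0.1 in the others. With the replicate block, genes called against U were 28 in CTCF D (76 without) and 22 in CLC D (92), and 164 in CLC ID against I (299), and list genes in CLC D were 2 (5).

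Counts of called genes in CLC D moved from 92 to 42 without a filter, 305 with the compared groups alone, 258 with DESeq2 and 341 with all lines in 1 fit, and those of the lists from 5 to 3 without a filter and 8 with the groups alone and with DESeq2. In CLC ID against I, 299 became 3 with the groups alone, 483 with DESeq2 and 620.0 with all lines, and 6 list genes became 1 with the groups alone. In LCL D, 291 became 461 with all lines. With a library left out, called genes ranged from 1 to 194 in CLC D, 1214 to 2400.0 in CLC I, 360.0 to 1164 in CLC ID, 60 to 637 in CLC ID against I, 12 to 162 in CTCF D and 154 to 359 in LCL D, and list genes from 0 to 7 in CLC D, 2 to 8 in CLC ID against I, 5 to 11 in CLC ID, 1 to 4 in CTCF D and 3 to 5 in LCL D. Equal list sizes left 0 FLAG sets at Gadd45a, 0 at Gadd45b and 1 at Gadd45g, and a window of 1 kb left 4 at Gadd45a, 2 at Gadd45b and 1 at Gadd45g, which turned the order of the genes. With either replicate alone, RAD21 sets ranged from 0 to 1 at Gadd45b and at Gadd45g. Without any 1 of the U and D libraries of CLC, 1 or 2 genes were called in CLC D, and without CLC U replicate 2, 360.0 in CLC ID. CTCF U replicate 2 gave the lowest count in CTCF D (12), CTCF I replicate 1 the highest (162), LCL U replicate 1 the lowest in LCL D (154), and CLC ID replicate 2 and CLC I replicate 1 the lowest and highest in CLC ID against I. Of the 59 calls against U of the other genes named, 7 of 530 values under these other alternatives and 21 of 575 with a library left out lost the call, and none reversed. The depth of the ChIP lists is unknown, and groups of 2 libraries allow no exact test under 0.05. The causes of these shifts were not tested.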
